A study of Mus musculus with 8 samples.

Results

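The Mir17hg cluster, commonly named after its first and last members miR-17 and miR-92a, is a run of 6 microRNA (miRNA) hairpins that share one primary transcript, the RNA of the host gene Mir17hg. The 10 mature arms described here were taken by name from a table of 1907 mature miRNAs, as the arms of miR-17, miR-18a, miR-19a, miR-20a, miR-19b and miR-92a that were listed for this cluster. The prefix mmu- of the table's names stands for mouse and is printed only where an arm's levels are first given. All 10 were present in every library. Small RNA was sequenced from wild-type mouse bone marrow-derived macrophages, primary cells grown from marrow precursors for 6 days in L929 supernatant, a conditioned medium that supplies M-CSF. The labels give an age of 8 to 12 weeks for both groups and name no strain. In 3 libraries the cells had been given lipopolysaccharide (LPS, a glycolipid of the outer membrane of Gram-negative bacteria that Toll-like receptor 4 detects) at 100 ng/ml for 3 h, and in 3 libraries they were unstimulated. The series also has 2 chromosome conformation samples, which were not analysed here.

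No label ties the 3 libraries of a group to separate animals or cultures, so every p-value below reflects only how these libraries varied, which may be technical. The deposited tables' names number the wild-type samples from 1 to 3 in both groups, and whether a number stands for an animal shared by the groups is not given in the sources used here. Library totals ranged from 3280688 to 4312555 counts, and reads carried no molecular identifiers, so intervals from counts cover counting error only. Among the macrophage and myeloid markers, 5 of 6 were detected, with a summed level of 479830 to 541887 CPM (counts scaled to library size) in LPS libraries and 473448 to 529000 CPM in unstimulated libraries. Most of that sum was miR-22-3p and miR-21a-5p. One listed marker, miR-223-5p, passed the test and was lower after LPS, at 257 ± 10.4 CPM in LPS libraries and 467 ± 97.5 CPM in unstimulated libraries (SD, n = 3 each; edgeR log2 fold change -0.86, SE 0.15, adjusted p = 0.00623). Its part in the results below was not tested. The more abundant arm of that hairpin, miR-223-3p, did not pass, at 2340 ± 331 CPM after LPS and 2279 ± 984 CPM without it (edgeR log2 fold change 0.04, SE 0.25, adjusted p = 0.998). miR-142a-3p was at 0 counts throughout while its partner arm miR-142a-5p was abundant. Erythroid markers summed to at most 5 counts, stromal markers to at most 9 and endothelial markers to at most 1 in any library. The lymphocyte pair summed to 63.7 to 77.6 CPM after LPS and 56.3 to 71.3 CPM in unstimulated cells, and whether it bears on any result was not tested. miR-155-5p, an miRNA induced by Toll-like receptor signalling, had 16393, 17259 and 17650 counts in the LPS libraries and 4659, 1164 and 2813 counts in the unstimulated ones (edgeR quasi-likelihood test, log2 fold change 2.75, SE 0.38, adjusted p = 0.000981).

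A primary miRNA transcript is cropped in the nucleus by Drosha with DGCR8 into separate hairpins. Dicer then cuts each hairpin into a duplex of a 5p and a 3p arm, and mostly one arm is retained in an Argonaute protein, where bases near its 5′ end, the seed, pair with target messenger RNAs. The cluster is best known as an oncogenic polycistron in B cell lymphoma of the mouse and for its roles in lung, heart and B cell development. In human progenitor cells, miR-17-5p and miR-20a are known to restrain differentiation into monocytes.

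The mature sequences are shown because they sort the 10 arms into seed families and show how little some members differ. They come from RefSeq on GRCm38.p6, which gave a sequence for 10 of 10 members and for 1623 of the 1907 miRNAs in the table. Each is written 5′ to 3′ with the seed, bases 2 to 8, in capitals. The first group holds the arms that dominate their hairpins.
miR-17-5p: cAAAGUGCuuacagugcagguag
miR-20a-5p: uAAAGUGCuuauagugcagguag
miR-18a-5p: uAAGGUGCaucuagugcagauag
miR-19a-3p: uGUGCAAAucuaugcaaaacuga
miR-19b-3p: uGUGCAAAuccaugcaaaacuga
miR-92a-3p: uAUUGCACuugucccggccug

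The second group holds the partner arms, the strands from the other side of the duplex, which were the less abundant arm in all 6 libraries.
miR-17-3p: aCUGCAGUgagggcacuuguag
miR-18a-3p: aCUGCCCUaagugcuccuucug
miR-20a-3p: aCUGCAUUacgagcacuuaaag
miR-92a-1-5p: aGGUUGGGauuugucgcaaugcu

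The dominant arms fall into 4 seed families. miR-17-5p and miR-20a-5p share AAAGUGC and differ by C1U and C12U, with positions counted from 1 at the 5′ end of the first-named miRNA. miR-19a-3p and miR-19b-3p share GUGCAAA and differ by U11C alone over 23 bases. miR-18a-5p has AAGGUGC, which differs from the miR-17-5p seed by the substitution A4G, and miR-92a-3p has AUUGCAC. Among the 10 arms, each of the 4 partner arms has a seed of its own, although 3 of them begin with the same letters, ACUGC.

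The 6 hairpins lie within 836 bases on the plus strand of chromosome 14, at chr14:115043671-115044506 (GRCm38.p6), in the order miR-17, miR-18a, miR-19a, miR-20a, miR-19b-1 and miR-92a-1. RefSeq places the Mir17hg gene at chr14:115044390-115046728 on this build. That span holds 1 of the 6 hairpins whole (miR-92a-1) and 2 bases of miR-19b-1, and the other 4 hairpins lie before its annotated start. The table used gives no exons or introns for the locus. miR-19b-3p and miR-92a-3p are also made by hairpins of a paralogous cluster on the X chromosome, so their counts cannot be assigned to chromosome 14 alone. How reads that match several places were counted is not given in the sources used here.

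The arms of this one transcript differed in level by orders of magnitude. In macrophages the cluster's reads were almost all miR-92a-3p, an arm known to restrain blood vessel growth in endothelial cells of the mouse. Levels are given as CPM after scaling by trimmed mean of M-values (TMM) factors and are not divided by length, since mature miRNAs of 21 to 23 bases are read whole. CPM compare reads between sequences, and how fully each sequence was recovered in a library was not measured.

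mmu-miR-92a-3p had 25879, 27603 and 28861 CPM in the LPS libraries, against 25642, 25815 and 25158 CPM in the unstimulated libraries. It was the sixth most abundant of all 1907 miRNAs by mean level, and all 6 libraries lay within a narrow band. mmu-miR-17-5p, which targets the cell cycle inhibitor p21 and the pro-apoptotic Bim in mammalian cells, had 639.6, 559 and 629 CPM in LPS libraries and 550.1, 622 and 543 CPM in unstimulated libraries. Its groups overlapped, and it ranked 67 of 1907. mmu-miR-20a-5p, of the same seed, had 406, 374 and 361 CPM after LPS, against 359.7, 365 and 353 CPM without it, with the lowest LPS library inside the unstimulated range. mmu-miR-19a-3p, of the family best known for the cluster's action in mouse lymphoma, had 266, 230.4 and 271 CPM in LPS libraries and 284, 258 and 257 CPM in unstimulated libraries. mmu-miR-18a-5p had 253, 218 and 261 CPM in LPS libraries, against 248, 239 and 235 CPM in unstimulated libraries. For both of these arms LPS replicate 2 was the lowest of the 6 libraries, and the groups overlapped.

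The partner arms formed a lower tier, together with miR-19b-3p. mmu-miR-17-3p had 127, 92.7 and 86.3 CPM in LPS libraries and 97.6, 118 and 109 CPM in unstimulated libraries. mmu-miR-92a-1-5p had 76.0, 79.2 and 75.4 CPM after LPS, against 57.5, 76.2 and 58.0 CPM without it. Of the unstimulated libraries only replicate 2 reached the LPS values, and it lay between them. mmu-miR-18a-3p had 79.8, 64.7 and 67.0 CPM in LPS libraries and 60.3, 56.8 and 72.3 CPM in unstimulated libraries. Its groups overlapped through unstimulated replicate 3. mmu-miR-19b-3p had 9.18, 10.8 and 8.38 CPM in LPS libraries, against 10.7, 9.71 and 10.7 CPM in unstimulated libraries, which rests on 29 to 45 counts per library. mmu-miR-20a-3p had 11.7, 7.60 and 5.84 CPM after LPS and 8.55, 9.71 and 9.22 CPM without it, from 23 to 40 counts per library. Its LPS libraries were both the highest and the lowest of the 6.

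**Figure D1:**
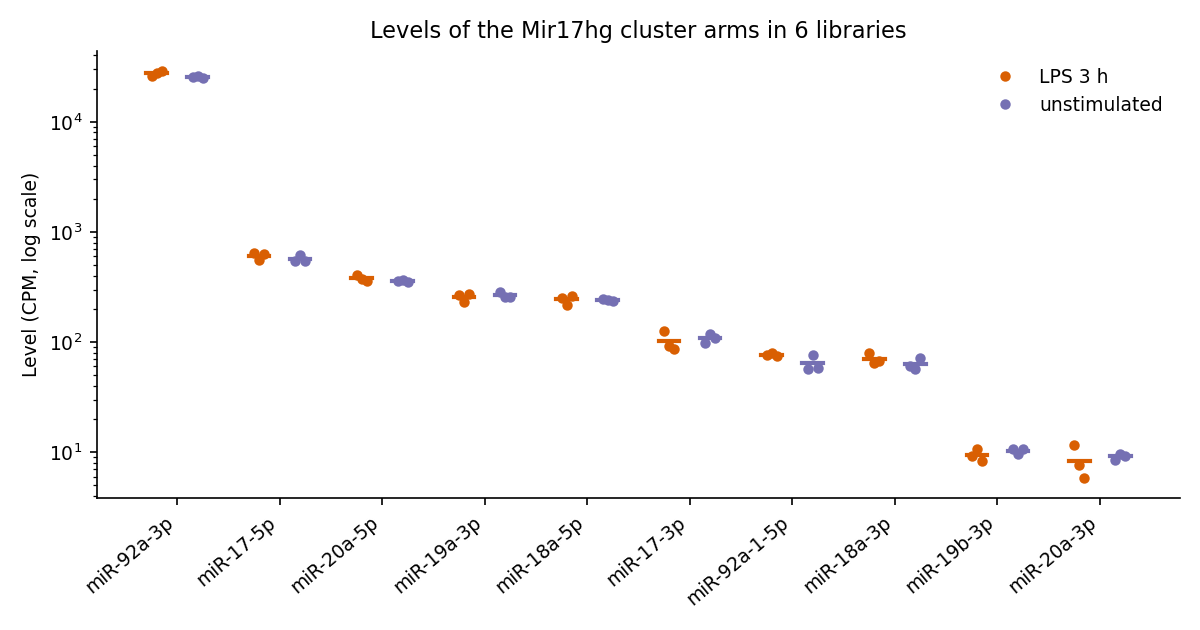
Level of each of the 10 listed arms in CPM on a log axis, ordered by mean over 6 libraries, with 1 point per library and a bar at the mean of each group of 3 (LPS 3 h orange, left; unstimulated purple, right). miR-92a-3p lies at 25158 CPM or above in every library, miR-19b-3p and miR-20a-3p lie near 10 CPM, and the 2 groups sit at nearly the same height for each arm.

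Ordered by mean over the 6 libraries, the arms ran miR-92a-3p, miR-17-5p, miR-20a-5p, miR-19a-3p, miR-18a-5p, miR-17-3p, miR-92a-1-5p, miR-18a-3p, miR-19b-3p and miR-20a-3p. Of the 9 neighbouring pairs in this order, 3 overlapped in their 6 values. In 2 of these the order also changed between libraries, with miR-92a-1-5p above miR-18a-3p in 3 of 6 libraries and miR-19b-3p above miR-20a-3p in 4 of 6, so these neighbours did not differ beyond their spread. In the third pair, miR-19a-3p exceeded miR-18a-5p within each of the 6 libraries, by 1.08 ± 0.0376 times (SD; range 1.04 to 1.14), although their ranges overlapped across libraries. The other neighbours were separated in every library. miR-92a-3p was 45.0 ± 3.37 times miR-17-5p (SD, n = 6 libraries; range 40.5 to 49.4). miR-17-5p was 1.60 ± 0.101 times miR-20a-5p, and miR-20a-5p was 1.42 ± 0.130 times miR-19a-3p.

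Members of one seed family were not alike in level. miR-19a-3p was 26.6 ± 3.80 times miR-19b-3p over the 6 libraries (SD; range 21.4 to 32.3). The pair differ by 1 base, and miR-19b-3p has 2 source hairpins in the genome. How reads that match both hairpins were counted is not given, and its part in this ratio was not tested. miR-17-5p and miR-20a-5p, which differ by 2 bases, were within the 1.50- to 1.74-fold range in every library. Among partner arms, miR-17-3p was 12.2 ± 1.37 times miR-20a-3p. Of 11 such ratios computed, the ratio of miR-19a-3p to miR-18a-5p was the only one whose groups did not overlap. It was 1.05 ± 0.00873 in LPS libraries and 1.10 ± 0.0345 in unstimulated libraries (SD, n = 3 each), and was singled out after its values were seen. For the levels of single miRNAs, the groups did not overlap for 16% of all tested.

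**Figure D2:**
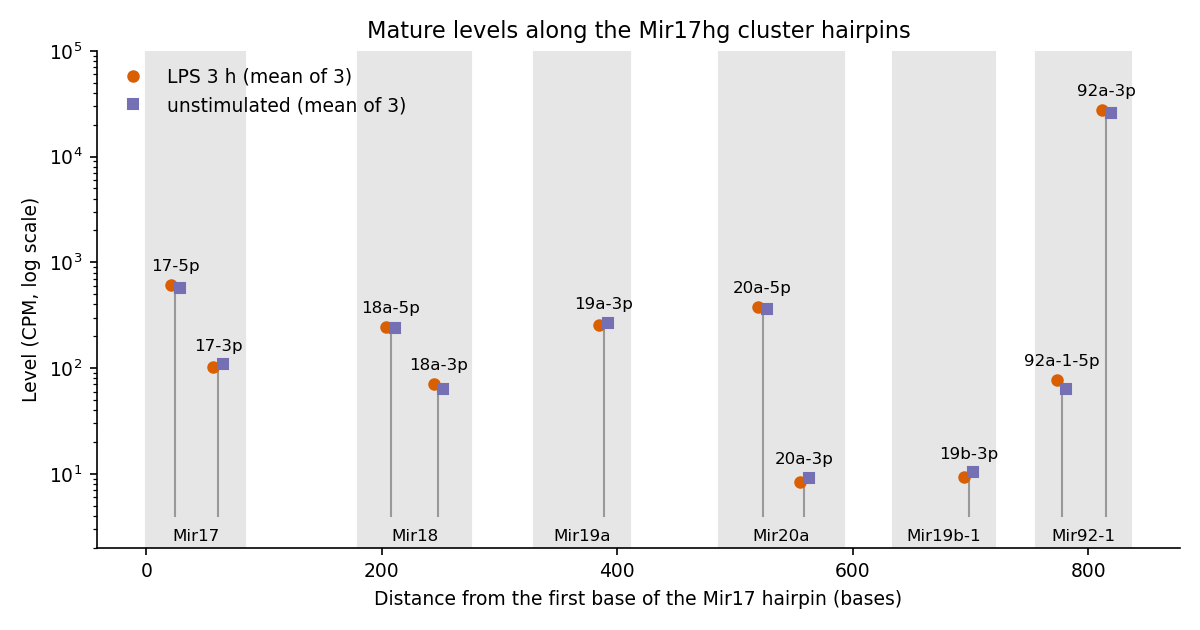
Mean level of each listed arm in CPM on a log axis (LPS 3 h orange circles, unstimulated purple squares, n = 3 libraries each), placed by the distance of its centre from the first base of the Mir17 hairpin; grey bands mark the 6 hairpins. The levels do not run in one direction along the cluster: the hairpin with the lowest dominant arm, Mir19b-1, lies next to the one with the highest, Mir92-1. The dominant arms of both also have a hairpin on the X chromosome.

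Position along the transcript did not order the levels. The dominant arms of the first 4 hairpins had mean levels over all libraries of 590.5, 243, 261 and 370 CPM in their order on the chromosome. The hairpin that starts 634 bases after the first one carries the lowest dominant arm, miR-19b-3p, with a mean of 9.90 CPM. Its neighbour starting at 756 bases carries miR-92a-3p, with 26493 CPM. In the plot of mature levels along the hairpins, miR-19b-3p and miR-92a-3p are the lowest and highest dominant arms of the 6. Both also have a hairpin on the X chromosome, so neither level can be assigned to this transcript alone.

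Because of miR-92a-3p, the cluster as a whole was a visible part of each library. The 10 arms made up 2.67%, 2.99% and 2.94% of all counts in the LPS libraries, against 2.67%, 2.90% and 2.76% in the unstimulated libraries. Their mean share was 2.87% ± 0.170 after LPS and 2.78% ± 0.119 in unstimulated cells (SD, n = 3 each; two-sided exact permutation test, p = 0.5, where 3 against 3 cannot go below 0.1). On the TMM scale the groups did not overlap, with a summed level of 29204 ± 1440 CPM after LPS and 27231 ± 389 CPM without it. For the levels of single miRNAs this held for 16% of all tested. Without miR-92a-3p the summed levels of the groups overlapped, at 1756 ± 116 CPM after LPS and 1693 ± 55.0 CPM without it. miR-92a-3p held 93.97% ± 0.614 of the cluster's counts in LPS libraries and 93.78% ± 0.128 in unstimulated libraries (exact permutation p = 0.6). The remaining 9 arms together made up 0.172% ± 0.00677 of LPS library counts and 0.173% ± 0.0109 of unstimulated library counts (exact permutation p = 0.9).

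Each of those 9 arms held a similar share of their sum in both groups. miR-17-5p held 34.7% ± 0.835 of their counts in LPS libraries and 33.7% ± 1.47 in unstimulated libraries. miR-20a-5p held 21.7% ± 1.19 after LPS and 21.2% ± 0.365 without it. miR-19a-3p held 14.6% ± 0.692 in LPS libraries, against 15.7% ± 1.13 in unstimulated libraries. All 9 arms overlapped between the groups, and their exact permutation p-values ranged from 0.2 to 0.7.

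The 3p or the 5p arm dominated depending on the hairpin, and the degree of dominance varied from 3.67-fold in miR-18a to 381.9-fold in miR-92a-1 (means over 6 libraries). Arm balance was followed as the share of the less abundant arm in the counts of both arms of a hairpin. miR-18a was the most even, with miR-18a-3p at 24.0%, 22.9% and 20.4% in LPS libraries and 19.5%, 19.2% and 23.5% in unstimulated libraries. miR-17-3p was 16.5%, 14.2% and 12.1% of its hairpin in LPS libraries, against 15.1%, 16.0% and 16.7% in unstimulated libraries. Both hairpins had groups that overlapped.

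miR-20a, whose dominant arm is nearly the same as that of miR-17, was more one-sided. miR-20a-3p was 2.81%, 1.99% and 1.59% of its hairpin in LPS libraries and 2.32%, 2.59% and 2.54% in unstimulated libraries. miR-19a-5p, which is not among the 10 listed arms, averaged 1.51% ± 0.534 of its hairpin after LPS and 1.18% ± 0.196 without it, from 10 to 18 counts per library. miR-92a-1 was the most one-sided, with miR-92a-1-5p at 0.293%, 0.286% and 0.260% in LPS libraries, against 0.224%, 0.294% and 0.230% in unstimulated libraries. Some miR-92a-3p reads can come from the second hairpin on the X chromosome, so this share is one of both sources. That second hairpin's own partner arm, miR-92a-2-5p, had 1 count in LPS replicate 1 and 0 counts in the other 5 libraries. miR-19b-1-5p had 12 of the 247 counts of its pair over all 6 libraries, too few for the test.

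The most even and the most one-sided hairpin are printed for comparison, from RefSeq, with the mature arms in capitals.
miR-18a hairpin: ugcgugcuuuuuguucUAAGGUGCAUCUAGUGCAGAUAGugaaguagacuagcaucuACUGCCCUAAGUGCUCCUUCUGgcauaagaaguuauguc
miR-92a-1 hairpin: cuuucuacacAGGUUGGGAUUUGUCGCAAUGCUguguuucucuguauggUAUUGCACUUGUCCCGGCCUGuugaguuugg

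**Figure D3:**
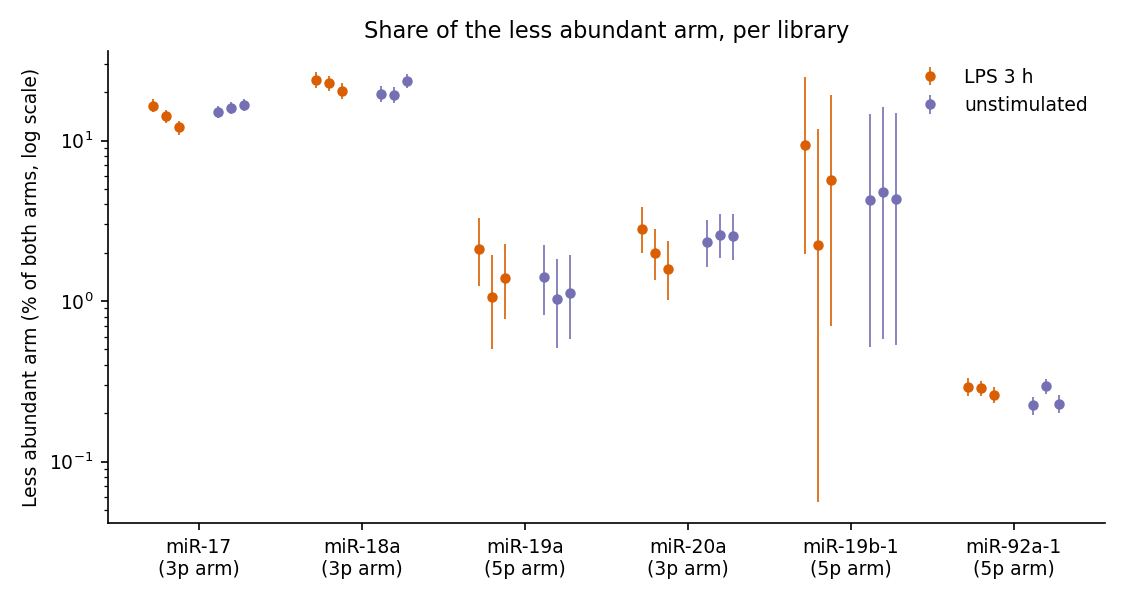
Share of the less abundant arm in the counts of both arms of each hairpin of the cluster, in percent on a log axis, with 1 point per library and its exact (Clopper-Pearson) 95% interval (LPS 3 h orange, left; unstimulated purple, right). Shares span about 2 orders of magnitude between hairpins and overlap between the groups for all 6 hairpins.

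Arm ratios did not differ detectably between LPS and unstimulated cells. On the log2 scale, the difference in the ratio of less to more abundant arm (LPS minus unstimulated) was -0.20 for miR-17 (95% interval -0.58 to 0.19), 0.15 for miR-18a (-0.25 to 0.54), 0.29 for miR-19a (-0.46 to 1.03), -0.25 for miR-20a (-0.81 to 0.31) and 0.17 for miR-92a-1 (-0.21 to 0.56). None of the 5 hairpins tested passed by limma over all 115 hairpins with both arms measured (adjusted p = 0.694 to 0.762), and none had an unadjusted p below 0.05. Among all 115 hairpins, 12.2% were called and 18.3% had an unadjusted p below 0.05. The median difference was 0.15 for the 5 hairpins and 0.01 for the 115.

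The cluster held both strongly one-sided and fairly even hairpins relative to those 115. By the fold of the abundant over the less abundant arm, miR-92a-1 ranked 8 of 115, miR-19a 29, miR-20a 35, miR-17 77 and miR-18a 86, where the median hairpin had a 12.3-fold excess. The 5p arm was the abundant one in 56.5% of the 115 hairpins, and in miR-17, miR-18a and miR-20a of the cluster. The 5′ ends printed above also differ between partners. In miR-17, miR-18a, miR-20a and miR-92a-1 the abundant arm has more A and U among its first 4 bases than its partner. The same holds for 44 (43.6%) of the 101 hairpins with both sequences, while in 30 the numbers are equal and in 27 it has fewer. In miR-19b-1 the abundant arm has fewer, 2 against 3. The 4 partner arms all start with A, while 5 of the 6 dominant arms start with U. Over the 101 hairpins, 53.5% of abundant arms and 17.8% of less abundant arms start with U. Of the 115 hairpins, 15 share an arm with another hairpin.

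No change of any of the 10 arms passed the test after 3 h of LPS. In bulk RNA, fewer cells that carry an arm and less of it per cell cannot be told apart. None of the 10 passed edgeR's quasi-likelihood test in either direction at an adjusted p below 0.05, where 5.04% of all 357 miRNAs tested were called, 3.64% higher and 1.4% lower in LPS. All 10 had passed the filter on low counts. None had an unadjusted p below 0.05, against 11.8% of all tested, and DESeq2 and limma-voom also called none. The log2 fold changes were positive for 6 arms and negative for 4, with a median of 0.05, beside 0.01 for all 357.

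The intervals show how large a change the data allow. The 95% interval of every arm lay within a log2 fold change of -1 to 1, that is, inside a 2-fold change either way. The best-measured arm, miR-92a-3p, had a log2 fold change of 0.10 (SE 0.09, 95% interval -0.10 to 0.30, edgeR adjusted p = 0.919). For miR-17-5p it was 0.09 (SE 0.11, -0.16 to 0.35, edgeR adjusted p = 0.943) and for miR-20a-5p 0.08 (SE 0.11, -0.16 to 0.32, edgeR adjusted p = 0.943). miR-19a-3p had -0.06 (SE 0.12, -0.32 to 0.20) and miR-18a-5p 0.02 (SE 0.12, -0.24 to 0.28), a sign that turned under 2 of the other scalings. The least precise were the arms with the fewest counts, miR-20a-3p at -0.15 (SE 0.27, -0.76 to 0.46) and miR-19b-3p at -0.13 (SE 0.21, -0.60 to 0.34).

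The lowest adjusted p among the 10 belonged to miR-92a-1-5p, the partner arm of the last hairpin. It averaged 76.8 ± 2.04 CPM after LPS and 63.9 ± 10.7 CPM in unstimulated cells (SD, n = 3 each), a log2 fold change of 0.27 (SE 0.15, 95% interval -0.08 to 0.61, edgeR adjusted p = 0.645). Without unstimulated replicate 2 the log2 fold change was 0.42 (edgeR adjusted p = 0.291, with an unadjusted p below 0.05), and without unstimulated replicate 1 it was 0.15 (edgeR adjusted p = 0.892).

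**Figure D4:**
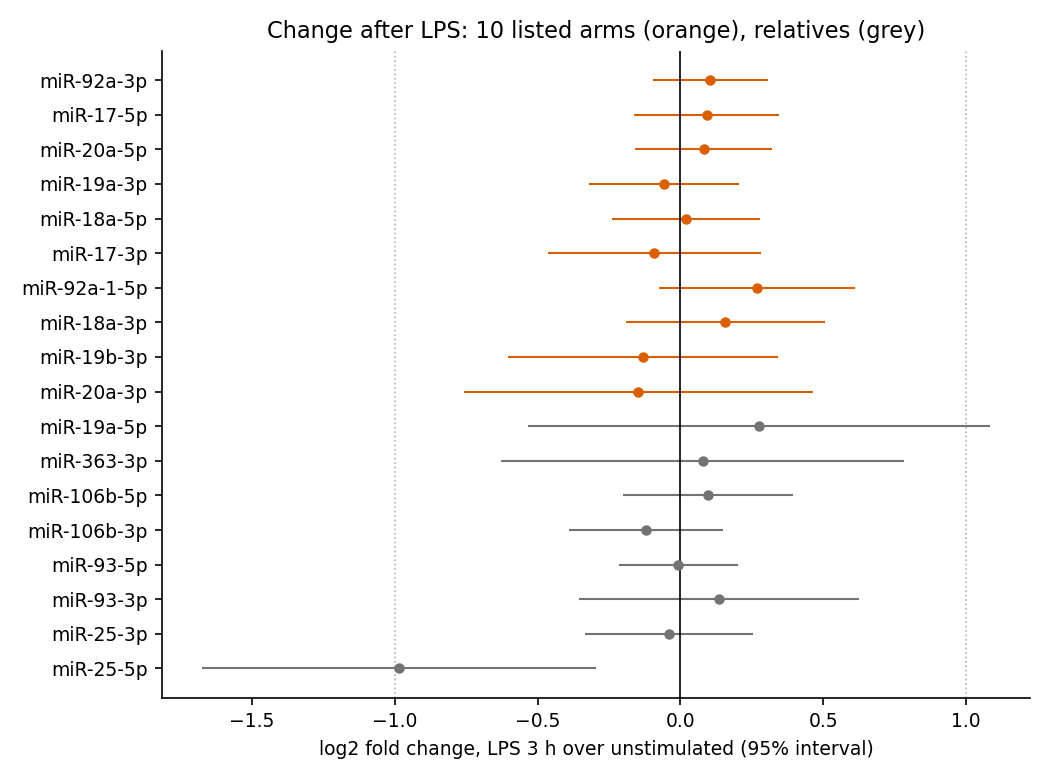
log2 fold change of LPS 3 h over unstimulated with its 95% interval from edgeR, for the 10 listed arms (orange) and the 8 tested relatives (grey); dotted lines mark a 2-fold change. All 10 orange intervals cross 0 and stay within the dotted lines, and miR-25-5p is the 1 plotted relative whose interval does not reach 0. The tested miR-32-5p and miR-92b-3p, which carry the miR-92 seed, are not plotted. The interval of miR-32-5p, 0.11 to 0.95, does not reach 0, and that of miR-92b-3p, -0.38 to 0.84, does.

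The groups did not overlap for 1 of the 10 arms, miR-92a-3p, on the TMM scale, where 16% of all tested miRNAs showed no overlap. Its LPS mean was 27448 ± 1497 CPM, against 25538 ± 340.3 CPM in unstimulated libraries. As a share of library totals the groups did overlap, with 2.49%, 2.82% and 2.77% in LPS libraries and 2.50%, 2.72% and 2.59% in unstimulated libraries (exact permutation p = 0.5). Depth limited this arm little, since counting error alone gives a coefficient of variation of 0.312% in LPS libraries, where the observed one was 5.46%. For miR-19b-3p counting error alone gives 16.8% in LPS libraries, and the observed coefficient of variation was 13.0%.

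LPS replicate 1 was the library that stood out most among the 10 arms. It was the highest of the 6 libraries for 5 arms. There 8 of 10 arms lay above their own mean, and the median deviation over all 10 was 0.12 on the log2 scale. LPS replicate 1 also had the lowest total count.

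Other clusters carry the same seeds, and they contributed most of the miR-17 seed and a smaller share of the others. The miR-106b-25 cluster lies on chromosome 5 and the miR-106a-363 cluster on the X chromosome. In the table, 7 mature miRNAs share the seed AAAGUGC. Their summed level was 5600.1 ± 94.2 CPM in LPS libraries and 5535 ± 230 CPM in unstimulated libraries (SD, n = 3 each; exact permutation p = 0.7). miR-17-5p and miR-20a-5p together held 17.7% ± 1.04 of it after LPS and 16.8% ± 0.533 without it. miR-93-5p, from the miR-106b-25 cluster, held 75.1% over all 6 libraries, and miR-106b-5p, from the same cluster, 7.67%. The sequences of these relatives are shown for comparison with miR-17-5p.
miR-93-5p: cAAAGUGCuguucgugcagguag
miR-106b-5p: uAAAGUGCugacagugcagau
miR-106a-5p: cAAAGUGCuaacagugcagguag

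miR-106a-5p differs from miR-17-5p by U10A alone. It had 0 counts in all 3 LPS libraries and 2, 2 and 1 counts in the unstimulated libraries, under the detection floor of 3 counts per library throughout.

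The miR-92 seed, AUUGCAC, was carried mainly by miR-92a-3p, whose reads may in part come from its X chromosome hairpin. Its summed level was 31542 ± 2237 CPM in LPS libraries and 29727 ± 287 CPM in unstimulated libraries (exact permutation p = 0.4). miR-92a-3p held 87.1% ± 1.50 of it after LPS and 85.9% ± 0.333 without it, and miR-25-3p, of the miR-106b-25 cluster, held 13.3% over all 6 libraries. miR-25-3p differs from miR-92a-3p by U1C, C14U and C18U over their first 21 bases.
miR-25-3p: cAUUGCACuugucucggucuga
miR-32-5p: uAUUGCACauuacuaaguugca

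miR-32-5p carries the same seed from a hairpin on chromosome 4 and made up 0.150% of the seed's reads. It averaged 54.8 ± 12.8 CPM in LPS libraries and 37.9 ± 2.21 CPM in unstimulated libraries, and the groups did not overlap (edgeR log2 fold change 0.53, SE 0.19, unadjusted p = 0.0178, adjusted p = 0.224). Over all tested miRNAs, the groups did not overlap for 16%, and 11.8% had an unadjusted edgeR p below 0.05.

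The miR-18 and miR-19 seeds were carried almost wholly by listed arms, of which miR-19b-3p also has a hairpin on the X chromosome. miR-18a-5p held 99.9% ± 0.0687 of the reads with seed AAGGUGC in LPS libraries and 99.7% ± 0.0896 in unstimulated libraries. The rest was miR-18b-5p of the X cluster, with 1, 1 and 0 counts after LPS and 4, 2 and 3 counts without it. For the seed GUGCAAA both mature miRNAs of the table are cluster members, with a summed level of 265 ± 20.8 CPM in LPS libraries and 276 ± 15.6 CPM in unstimulated libraries (exact permutation p = 0.6). miR-19a-3p held 96.3% of it.

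**Figure D5:**
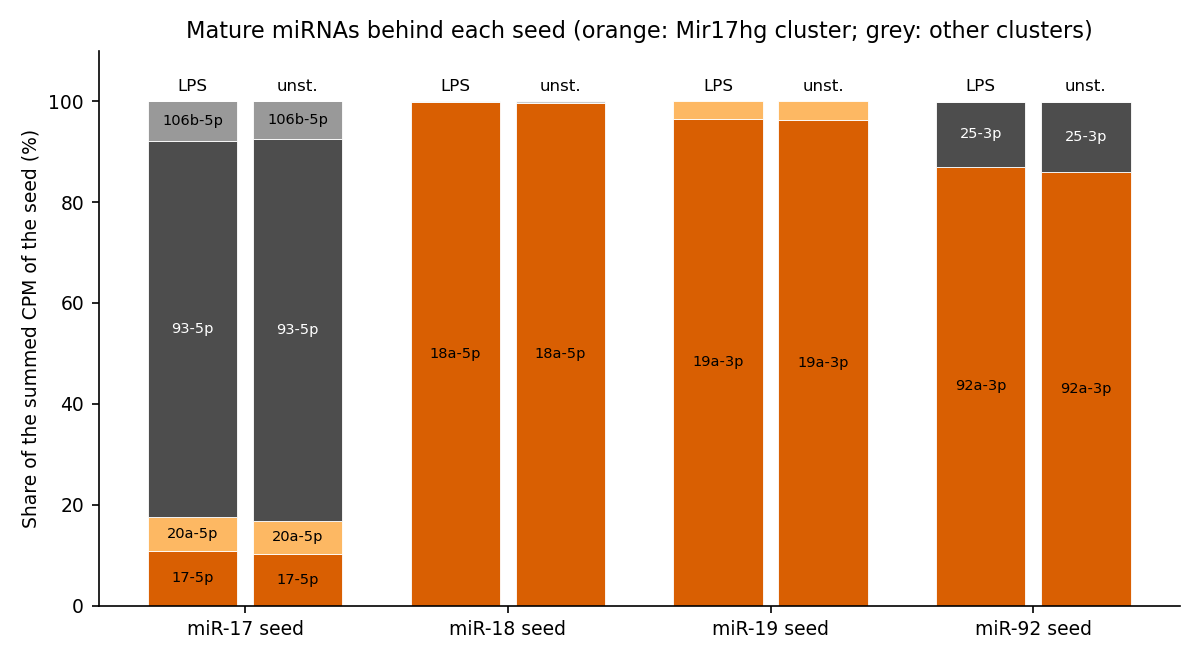
Share of each mature miRNA in the summed CPM of its seed, in percent, from group means of 3 libraries (LPS left, unstimulated right in each pair), with Mir17hg cluster arms in orange tones and miRNAs of other clusters in grey. miR-93-5p fills about 75% of the miR-17 seed, miR-25-3p about 13% of the miR-92 seed, and cluster arms nearly all of the other 2.

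The paralogous clusters were measured beside the 10 arms. The miR-106b-25 cluster made up 0.865% ± 0.0822 of LPS library counts and 0.911% ± 0.0504 of unstimulated library counts (exact permutation p = 0.6). The miR-106a-363 cluster had only 18 to 32 counts per library over all its 10 arms, of which miR-363-3p alone passed the filter (edgeR log2 fold change 0.08, SE 0.32, adjusted p = 0.987). Of 18 relatives listed (both clusters, with miR-19a-5p and miR-19b-1-5p), 8 were tested and none passed in either direction, with a median log2 fold change of 0.04. One of them, miR-25-5p, had an unadjusted p below 0.05, beside the 11.8% of all tested miRNAs that did. Its counts were 25, 19 and 13 in LPS libraries and 42, 37 and 49 in unstimulated libraries, with no overlap, as for 16% of all tested miRNAs (edgeR log2 fold change -0.99, SE 0.31, adjusted p = 0.150). It passed without LPS replicate 1 (log2 fold change -1.39, edgeR adjusted p = 0.0303) and with no filter on low counts (-0.96, edgeR adjusted p = 0.0473).

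The miRNAs whose pattern over the 6 libraries lay nearest to that of the summed cluster were miR-362-3p, miR-22-5p, miR-99a-3p, miR-93-5p and miR-99b-5p. Likeness was the root mean square difference of log2 CPM, each centred on its own mean over the 6 libraries, among 131 miRNAs with a mean of at least 100 CPM. The distances of these 5 were 0.038, 0.047, 0.059, 0.063 and 0.064, where the median over the 131 was 0.168. The summed cluster itself varied little, over a log2 range of 0.192. A miRNA of nearly constant level therefore also lies near it, so a small distance need not mean a shared pattern. By the same measure miR-92a-3p lay 0.00575 from the sum that it dominates. The other members lay farther out, with miR-20a-5p at 0.0916, miR-17-5p at 0.0947, miR-18a-5p at 0.0975, miR-19a-3p at 0.123 and the rest between 0.162 and 0.367. Apart from miR-92a-3p, no member lay nearer to the sum than these 5 miRNAs did. The 5 were picked as the nearest non-members, so this order says little about the members. The limit of 100 CPM was not applied to members, and miR-92a-1-5p, miR-18a-3p, miR-19b-3p and miR-20a-3p had lower means.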

How the data were processed

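Counts per mature miRNA, 1 whole number per miRNA and library, were used as the authors deposited them, with no normalization that the values show. Per the labels' protocols, total RNA was isolated with Tri Reagent and TruSeq Small RNA libraries were prepared from it. Novoalign and SAMtools 0.1.19 are the tools, and GRCm38.p1 (mm10) the assembly, in the submitters' processing notes. Which tool counted the reads, with which miRNA annotation and whether by strand, is not given in the sources used here.

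All 357 miRNAs that passed filterByExpr (minimum count 10) were fitted together in edgeR 4.0.16 (R 4.3.3) with TMM factors, the quasi-likelihood F test, group as the only term and Benjamini-Hochberg adjustment at 0.05. Arm ratios were tested with limma 3.58.1 (variance trend, log2 CPM with a prior count of 2) over 115 hairpins whose arms both passed. Shares and sums were compared by exact permutation over libraries (SciPy 1.17.1). DESeq2 1.42.0, limma-voom, other scalings and filters, and leaving out each library were alternatives. Replicates of a group differed by more than sampling noise. The members and lists were chosen with earlier results of these data known. The text names all listed arms, the other arms of their hairpins, both paralogous clusters, miRNAs that share a seed with a dominant arm, the 5 of nearest pattern, and miR-155 as a check of stimulation; where one of these is described at length was decided after its values were seen.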

Additional observations from a re-analysis of the deposited data

How the results depend on the processing

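Over 138 refits of the 10 arms' fold changes (other scalings, tests and filters, the replicate block, and each library left out), no arm passed, with log2 fold changes from -0.48 to 0.42 and a lowest adjusted p of 0.291. The sign turned in 9 of them. Among these, miR-18a-5p was at -0.039 with library totals and -0.044 with upper-quartile factors. When libraries were left out in turn, signs also turned within -0.046 to 0.099 for miR-18a-5p, -0.0024 to 0.17 for miR-20a-5p, -0.12 to 0.019 for miR-19a-3p, -0.31 to 0.063 for miR-17-3p, -0.48 to 0.11 for miR-20a-3p and -0.23 to 0.0023 for miR-19b-3p. Relatives are not counted in the 138 refits. Of them, miR-93-5p was at 0.016 without a filter. With libraries left out, their signs turned within -0.076 to 0.55 for miR-19a-5p, -0.18 to 0.32 for miR-363-3p, -0.15 to 0.034 for miR-25-3p, -0.075 to 0.029 for miR-93-5p, -0.11 to 0.35 for miR-93-3p, -0.064 to 0.20 for miR-106b-5p and -0.033 to 0.34 for the miR-93 arm ratio. The causes were not tested.

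Over all miRNAs, upper-quartile factors called 8 higher instead of 13. Lower calls were 5, against 8 without a filter and 3 at a minimum count of 50, which tests fewer miRNAs (8 of the 10 arms). Leaving out libraries gave 9 to 13 higher calls, 2 to 6 lower calls (2 without LPS replicate 3), 0 to 1 called relatives and 10 to 15 called arm ratios. Without a filter 1 relative was called, and without the variance trend 9 arm ratios. The log2 ratio of the AAAGUGC sum was 0.017, against 0.088 for cluster members only and -0.040 with library totals. Deviations of same-numbered replicates had correlations of 0.025, 0.14 and -0.040, beside -0.15 to 0.14 for differently numbered ones. With 3 libraries per group this check cannot tell whether a number stands for a shared animal. The labels name no pairing, so the main fit left it out. A fit with the replicate number as a block called 11 higher, 6 lower, 0 of the 10 arms and 11 arm ratios. Its log2 ratio of the cluster share was 0.045. Counts of 23 to 45 limit miR-19b-3p and miR-20a-3p most.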
